A study of Mus musculus with 12 samples.

Results

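De novo lipogenesis, the making of fatty acids from acetyl units, was followed through 10 genes in livers of mice that lack OXR1A and of wild-type (WT) mice. The 10 genes were taken by symbol from the liver table: Acly, Me1, Acaca, Acacb, Fasn, Scd1, Srebf1, Mlxipl, Thrsp and Pnpla3. All 10 were found among the 18560 genes listed, and all 10 were among the 11514 that were tested. The livers came from mice aged 12 months in 4 groups of 3 libraries each, OXR1A-/- males, WT males, OXR1A-/- females and WT females, 12 libraries in all. OXR1A is a long isoform encoded by Oxr1, a TLDc-domain gene that protects cells against oxidative damage. The labels give no Cre line, promoter, diet, feeding state or time of collection, and they do not say whether the libraries of a group came from separate animals. The p-values therefore measure the spread between these libraries, which may in part be technical. Values are FPKM, fragments scaled by transcript length and by sequencing depth, so levels can be compared between genes.

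In the pathway, citrate exported from mitochondria is split to acetyl-CoA in the cytosol, carboxylated to malonyl-CoA and built into palmitate with reducing power from NADPH. Palmitate is then elongated and desaturated, and liver stores or exports it as triglyceride. Insulin acts on the pathway through the transcription factor SREBP-1c, made from Srebf1, and glucose acts through ChREBP, made from Mlxipl, so that its genes are known to be high after feeding and low in fasting.

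No library shared its values with another: among genes of 5 FPKM or more, at most 0.338% were identical in any pair of libraries. Depth was not stated. The steps of 1 read in 205 low genes gave depths between 0.99 and 1.47 relative to WT female 1, the highest in WT male 2, where long transcripts were also scarcest (slope of log2 deviation on log2 transcript length -0.251, against -0.121 to 0.155 in the other libraries). Albumin, the defining hepatocyte transcript, stood at 31720 to 35762 FPKM in OXR1A-/- males against 39817 to 44456 in WT males, and at 44111 to 45904 FPKM in OXR1A-/- females against 39844 to 44984 in WT females. Fat tissue also uses this pathway. Of its defining markers, Adipoq was listed at 0 to 0.55 FPKM and Plin1 at 0 to 0.07, both highest in WT female 3. The 7 fat cell markers in the table summed to 22.5 to 36.4 FPKM in OXR1A-/- males against 13.5 to 24.2 in WT males, and to 11.5 to 17.3 in OXR1A-/- females against 11.4 to 15.4 in WT females. Most of the sum was Fabp4, which other cells also make (20.6, 33.2 and 19.4 FPKM in OXR1A-/- males against 8.61, 20.8 and 10.1 in WT males), while Adrb3 was at 1.18, 0.73 and 1.16 FPKM in OXR1A-/- males against 2.66, 1.49 and 4.32 in WT males. None of the 3 tested fat cell markers was called by limma in males, and 2 had an unadjusted p under 0.05, beside 23.9% of all tested genes. Oxr1 stood at 25.0, 22.9 and 22.1 FPKM in OXR1A-/- males against 23.3, 12.1 and 18.4 in WT males, and at 20.1, 19.7 and 21.0 in OXR1A-/- females against 17.4, 17.5 and 20.7 in WT females. Reads of every Oxr1 isoform enter this value, so it is no check that OXR1A was lost.

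The bases before the transcription start are shown for 4 of the genes, Acly, Fasn, Pnpla3 and Thrsp. Acly, Fasn and Pnpla3 were among the 4 that followed the other 9 most closely from library to library. Thrsp had the largest SD within groups on the log2(FPKM + 1) scale. Capitals mark matches, on either strand, to CCAAT, the letters bound by the factor NF-Y, or to GGGCGG, the GC box bound by Sp1. Each run gives 250 bases before the start, 5′ to 3′, from RefSeq promoters of GRCm38.p6 (Acly chr11:100528001-100528250, minus strand, Fasn chr11:120824548-120824797, minus strand, Pnpla3 chr15:84167566-84167815, plus strand, Thrsp chr7:97417551-97417800, minus strand).
Acly: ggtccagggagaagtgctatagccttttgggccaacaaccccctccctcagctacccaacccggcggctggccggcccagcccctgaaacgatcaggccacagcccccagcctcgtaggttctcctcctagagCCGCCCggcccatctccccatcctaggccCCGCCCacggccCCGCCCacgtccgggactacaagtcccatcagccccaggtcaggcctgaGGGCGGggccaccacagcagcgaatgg
Fasn: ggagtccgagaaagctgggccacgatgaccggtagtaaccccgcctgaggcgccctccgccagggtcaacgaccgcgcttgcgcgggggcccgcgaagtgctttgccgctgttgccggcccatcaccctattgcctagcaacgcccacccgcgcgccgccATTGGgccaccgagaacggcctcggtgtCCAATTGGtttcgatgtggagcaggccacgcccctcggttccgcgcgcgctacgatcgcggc
Pnpla3: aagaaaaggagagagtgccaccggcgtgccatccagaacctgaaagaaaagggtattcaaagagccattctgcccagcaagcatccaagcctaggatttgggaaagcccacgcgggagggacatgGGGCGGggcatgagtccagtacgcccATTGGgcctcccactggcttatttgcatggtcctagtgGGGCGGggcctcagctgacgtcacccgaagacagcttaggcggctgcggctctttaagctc
Thrsp: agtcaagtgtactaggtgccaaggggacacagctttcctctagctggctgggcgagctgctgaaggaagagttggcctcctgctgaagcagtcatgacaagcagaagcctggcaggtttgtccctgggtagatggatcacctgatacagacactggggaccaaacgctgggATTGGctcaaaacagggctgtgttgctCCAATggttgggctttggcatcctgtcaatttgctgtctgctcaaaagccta

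In these windows Fasn held CCAAT 3 times, with an overlapping pair on opposite strands, Thrsp 2 times and Pnpla3 1 time, while Acly held none and had 4 GC boxes, and Pnpla3 also had 2. Windows were found for 9 of the 10 genes. CCAAT was present in at least 1 window of 7 of the 9 and in 8 of their 13 windows, against 33.8% of the 32851 windows of all genes, and GGGCGG in 6 of the 13 against 32.7%. The E-box CACGTG (6.02% of all windows) and the core of the sterol element that SREBP binds, TCACNCCAC (1.05%), were each found only in windows of Mlxipl among the 9 genes. The direct repeat bound by LXR (0.0152%) was found in none of the 13 windows. Some windows lie inside the gene, wholly or in part. The only windows of Acaca and Acacb begin at 84195188 and 114165268, in genes on the plus strand that begin at 84129635 and 114146321. The Mlxipl window with the sterol element core begins at 135106641, in a gene from 135089890. On the minus strand, the Fasn window shown above ends at 120824797, in a gene that runs to 120825166. Its CCAAT matches thus lie inside the gene. The Srebf1 windows end at 60210721, 60220877 and 60222831, in a gene that runs to 60224186. The Me1 window with CCAAT ends at 86687527, in a gene that runs to 86695914. The Pnpla3 window, on the plus strand, ends at 84167815, past the first base of its gene at 84167776. Absence from these windows therefore does not show that a gene lacks the letters at another start. A match describes these letters and is not evidence of binding.

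By level, Scd1, the desaturase that makes oleate from stearate, stood far above the other genes in every group, with means from 1179.9 to 1576.2 FPKM. Thrsp was second in every group, at 121.8 to 388.3 FPKM. Mlxipl and Me1 came next, at 69.0 to 134.5 FPKM, except that in WT females Acly (70.4 FPKM) stood just above Me1 (69.0 FPKM). Acly, Srebf1 and Fasn had means of 37.5 to 70.8 FPKM, with ranges that overlapped in each group. The carboxylases Acaca and Acacb had means of 7.02 to 15.9 FPKM, and Pnpla3 was the lowest in every group, at 0.747 to 3.67 FPKM.

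**Figure D1:**
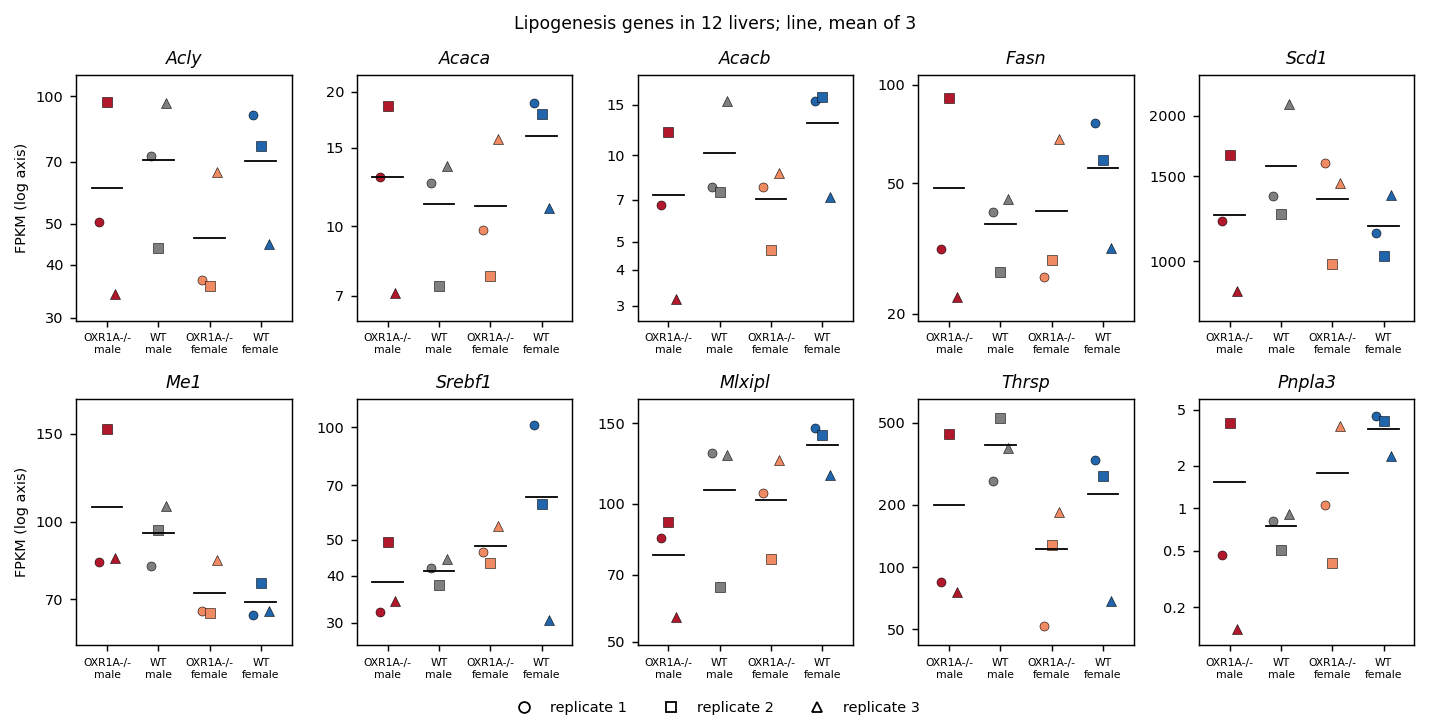
FPKM (log axis) of the 10 lipogenesis genes in 12 livers, grouped by genotype and sex, with 1 symbol a library and a line at the mean of 3. OXR1A-/- male 2 is the highest of its group for every gene, and the groups overlap in both knockout comparisons.

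The first question was whether loss of OXR1A altered these genes in males, whose livers the study's title describes as fatty. None of the 10 genes was called in OXR1A-/- males against WT males (limma, Benjamini-Hochberg adjusted p under 0.05), against 2.55% of all tested genes, and none reached an unadjusted p under 0.05, against 2752 of the 11514. For none of the 10 did the 3 values of one group all lie above those of the other, which was so in 23.7% of the tested genes. The log2 differences of the 10 had a median of -0.20, beside a median of 0.19 over all tested genes.

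Acly, the lyase that releases acetyl-CoA from citrate, was at 50.6, 97.1 and 34.3 FPKM in OXR1A-/- males and at 72.3, 44.0 and 96.3 FPKM in WT males. The highest library was much the same in both groups, and the ranges overlapped widely. The log2 difference was -0.28, with a 95% interval from -1.17 to 0.61. Me1, the malic enzyme that supplies NADPH, had 83.1, 152.9 and 84.6 FPKM in OXR1A-/- males against 81.7, 96.3 and 107.3 in WT males. Only OXR1A-/- male 2 stood outside the WT range (log2 difference 0.12, interval -0.35 to 0.58).

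The carboxylases make malonyl-CoA, for synthesis in the case of Acaca and, at the mitochondrial surface, for control of fatty acid entry in the case of Acacb. Acaca was at 12.9, 18.6 and 7.11 FPKM in OXR1A-/- males and at 12.5, 7.37 and 13.7 FPKM in WT males. Acacb was at 6.70, 12.0 and 3.17 FPKM in OXR1A-/- males and at 7.74, 7.47 and 15.4 FPKM in WT males. The OXR1A-/- values of Acaca ran past both ends of the WT range, while Acacb was below every WT male in 2 of the 3 OXR1A-/- males and inside the WT range in male 2. The intervals of the log2 differences ran from -0.62 to 0.90 for Acaca and from -1.44 to 0.41 for Acacb.

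Fasn, the synthase that builds palmitate, was at 31.6, 91.2 and 22.5 FPKM in OXR1A-/- males and at 41.0, 26.8 and 44.8 FPKM in WT males. OXR1A-/- male 2 held more than any WT male and OXR1A-/- male 3 less than any. The means were 48.4 ± 37.3 FPKM in OXR1A-/- males and 37.5 ± 9.46 FPKM in WT males (SD, n = 3 each), and the log2 difference was 0.13 (SE 0.51, interval -0.98 to 1.24, limma adjusted p = 0.888). Scd1 stood at 1208.3, 1655.3 and 866.1 FPKM in OXR1A-/- males and at 1363.4, 1249.5 and 2115.5 FPKM in WT males, with a log2 difference of -0.35 (interval -0.94 to 0.24). Reads of Scd1 could in part be shared with its close relatives Scd2, Scd3 and Scd4.

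Among the regulators, Srebf1 was at 32.0, 49.3 and 34.2 FPKM in OXR1A-/- males and at 42.0, 37.7 and 44.3 FPKM in WT males (log2 difference -0.12, interval -0.84 to 0.60). The value covers both the SREBP-1a and the SREBP-1c transcript. Mlxipl was at 84.5, 91.3 and 56.7 FPKM in OXR1A-/- males and at 128.9, 65.9 and 127.8 FPKM in WT males. A single WT library, male 2, brought the Mlxipl groups into overlap (log2 difference -0.43, SE 0.28, limma adjusted p = 0.346). Without it the log2 difference was -0.75, and the call did not change.

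Thrsp, also called Spot 14, responds to thyroid hormone and carbohydrate and promotes lipogenesis. It had 84.9, 440.1 and 75.8 FPKM in OXR1A-/- males against 262.3, 525.4 and 377.0 in WT males. In 2 of the 3 OXR1A-/- males it lay below every WT male, and in OXR1A-/- male 2 it lay within the WT range. The means were 200.3 ± 207.8 FPKM in OXR1A-/- males and 388.3 ± 131.9 FPKM in WT males (SD, n = 3 each), and the log2 difference of -1.39 had an interval from -3.00 to 0.22 (SE 0.73, limma adjusted p = 0.265). Without OXR1A-/- male 2 it was -2.20 (SE 0.65, limma adjusted p = 0.151), again not called.

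Pnpla3, a lipid droplet acyl hydrolase that SREBP-1c and ChREBP are known to induce, was at 0.47, 4.04 and 0.14 FPKM in OXR1A-/- males. In WT males it was at 0.82, 0.51 and 0.91 FPKM. The OXR1A-/- libraries thus held both the highest and the 2 lowest values, 28.9-fold apart. The log2 difference on the log2(FPKM + 1) scale, which understates changes of so low a gene, was 0.23 (interval -0.92 to 1.38).

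**Figure D2:**
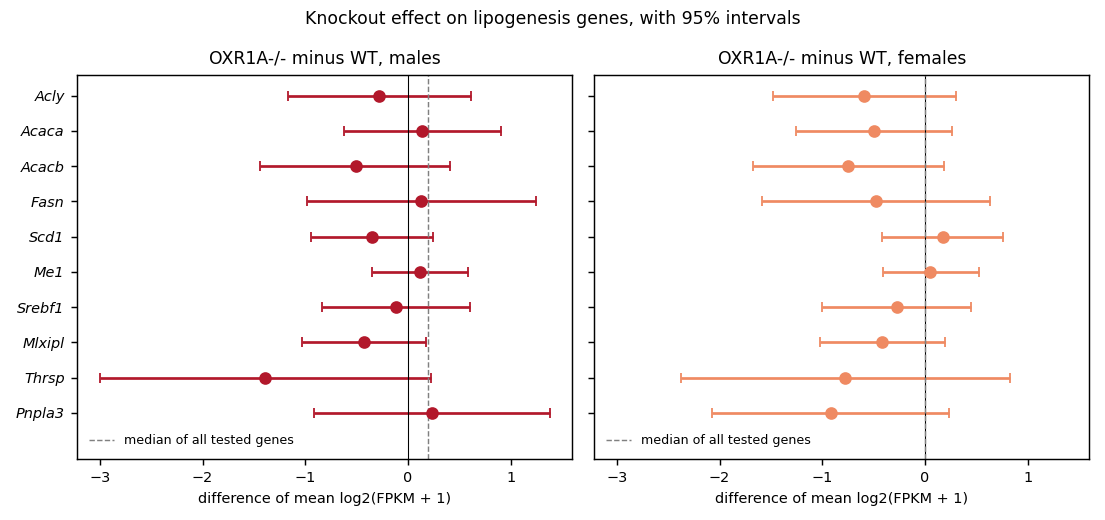
Difference of mean log2(FPKM + 1), OXR1A-/- minus WT, in males (left) and females (right), as points with 95% intervals from limma; the dashed line is the median of all tested genes (0.19 in males, 0.00 in females). All 20 intervals include 0, and that of Thrsp in males, from -3.00 to 0.22, is the widest on the left.

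Single libraries set the sign of several of these differences. Without OXR1A-/- male 2 the log2 difference was -0.45 for Fasn, -0.16 for Acaca, -0.17 for Me1 and -0.42 for Pnpla3, each positive with it. Fasn and Acaca were also below 0 without WT male 2 (-0.09 and -0.11), the library where long transcripts were scarcest. Their longest transcripts have 10050 and 9513 bases, and the part of length in this was not tested. Acly, negative with all libraries, was at 0.06 without OXR1A-/- male 3. With all 3 libraries, median-ratio scaling, which takes out the shift of 0.19, gave -0.07 for Fasn, -0.05 for Acaca and -0.09 for Me1. OXR1A-/- male 2 also had the highest summed macrophage markers of all libraries (367.7 FPKM, with 169.6 and 235.7 in the other OXR1A-/- males, against 72.0 to 116.0 in WT males) and the highest stellate markers (212.7 FPKM, with 153.2 and 138.2 in the other OXR1A-/- males, against 90.2 to 109.5 in WT males). In OXR1A-/- males 6 of 8 macrophage, 4 of 6 sinusoidal endothelium and 1 of 6 stellate markers rose, beside 2.55% of all tested genes called. No marker of these lists was at 0 in any library. The 8 hepatocyte markers summed to 48661 to 51650 FPKM in OXR1A-/- males against 59269 to 67997 in WT males. Limma called none of them, but 5 of the 8 had an unadjusted p under 0.05 and did not overlap: Alb, Apoa1, Serpina1a and Tat had log2 differences of -0.34, -0.62, -0.51 and -0.51, and Hnf4a one of 0.42. Over all tested genes 23.9% had a limma unadjusted p under 0.05 and 23.7% did not overlap. The median of the 8 hepatocyte markers was -0.43, beside 0.19 over all genes. The part of these cell type markers in the member values was not tested. In bulk tissue, fewer cells of a type and less RNA per cell cannot be told apart.

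In females, too, none of the 10 genes was called, against 0.0174% of all tested genes, which is 2 genes. None reached an unadjusted p under 0.05, against 706 of all, and none was without overlap, against 17.6% of all. Of the 10 log2 differences 8 were below 0, and their median was -0.49, beside 0.00 over all tested genes. The exceptions were Scd1 (0.17) and Me1 (0.05).

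Fasn was at 25.9, 29.2 and 68.6 FPKM in OXR1A-/- females and at 76.4, 59.0 and 31.8 FPKM in WT females. Acly was at 37.0, 35.8 and 66.3 FPKM in OXR1A-/- females and at 90.3, 76.1 and 44.9 FPKM in WT females. Both genes had 2 low and 1 high library among the OXR1A-/- females and 2 high and 1 low among the WT females. The same held for Acaca, at 9.81, 7.74 and 15.7 FPKM in OXR1A-/- females and at 18.9, 17.8 and 11.02 FPKM in WT females.

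Acacb had the lowest log2 difference but for Thrsp and Pnpla3. It was at 7.73, 4.69 and 8.64 FPKM in OXR1A-/- females and at 15.4, 16.0 and 7.13 FPKM in WT females, a log2 difference of -0.75 (SE 0.42, interval -1.67 to 0.18, limma adjusted p = 0.840). Pnpla3 was at 1.06, 0.41 and 3.85 FPKM in OXR1A-/- females and at 4.53, 4.13 and 2.34 FPKM in WT females (log2 difference -0.92, interval -2.07 to 0.23). Only OXR1A-/- female 3 entered the WT range for Pnpla3.

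Among the regulators, Srebf1 was at 46.5, 43.2 and 54.3 FPKM in OXR1A-/- females, inside the range of WT females, which had 101.8, 62.5 and 30.4 FPKM. Mlxipl was at 105.7, 75.9 and 124.6 FPKM in OXR1A-/- females and at 146.6, 141.5 and 115.4 FPKM in WT females, where again only OXR1A-/- female 3 entered the WT range. Thrsp was at 51.6, 128.1 and 185.7 FPKM in OXR1A-/- females and at 328.1, 277.4 and 68.6 FPKM in WT females (log2 difference -0.78, interval -2.38 to 0.83). WT female 3, the lowest WT female for 8 of the 10 genes, is what brings the Thrsp groups into overlap.

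Scd1 was at 1597.5, 985.8 and 1451.3 FPKM in OXR1A-/- females and at 1143.2, 1023.4 and 1373.1 FPKM in WT females, and here WT female 3 was the highest of its group. Me1 was at 66.2, 65.8 and 83.8 FPKM in OXR1A-/- females and at 65.0, 75.6 and 66.3 FPKM in WT females. For Me1 the interval of the log2 difference, from -0.41 to 0.52, was the narrowest of the 10 genes.

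The knockout effect in males minus that in females was also tested. None of the 10 genes was called by limma, against 0.0261% of all tested genes, which is 3 genes. None reached an unadjusted p under 0.05, against 9.03% of all tested genes. The estimate furthest from 0 was 1.15 for Pnpla3 (SE 0.74, interval -0.48 to 2.77, limma adjusted p = 0.547), and the median of the 10 was 0.19 beside 0.20 over all genes. The intervals were wide enough to hold a several-fold difference between the sexes for Pnpla3 and, from -2.89 to 1.66, for Thrsp.

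Males were then set against females within each genotype, and again none of the 10 genes was called, in WT (13.4% of all tested genes called) or in OXR1A-/- livers (3.67%). By limma's unadjusted p, 1 of the 10 was under 0.05 in each, Pnpla3 in WT and Me1 in OXR1A-/- livers. Over all tested genes that was so in 32.8% in WT and 15.5% in OXR1A-/- livers. Cell type markers also differed in WT: 7 of 8 macrophage, 5 of 6 sinusoidal endothelium and 3 of 6 stellate markers were called lower in WT males. Macrophage markers summed to 72.0 to 116.0 FPKM in WT males against 201.7 to 326.2 in WT females. Their part in the values of the 10 genes, and of the other genes compared between WT males and WT females, was not tested. Pnpla3 came nearest to a call. It was at 0.82, 0.51 and 0.91 FPKM in WT males and at 4.53, 4.13 and 2.34 FPKM in WT females, with no overlap. The means were 0.747 ± 0.21 FPKM in WT males and 3.67 ± 1.17 FPKM in WT females (SD, n = 3 each), a ratio of 0.204. On the log2(FPKM + 1) scale, which understates changes of so low a gene, the difference was -1.39 (SE 0.53, interval -2.54 to -0.24, limma adjusted p = 0.0972). Pnpla3 was called when only the 6 WT libraries entered the fit (limma adjusted p = 0.0076) and without OXR1A-/- male 2 (limma adjusted p = 0.0268). That library enters this comparison only through the shared estimate of the spread.

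Me1 was the other gene without overlap in WT, which was so in 40.2% of all tested genes. It was at 81.7, 96.3 and 107.3 FPKM in WT males and at 65.0, 75.6 and 66.3 FPKM in WT females (log2 difference 0.45, SE 0.21, limma adjusted p = 0.164; 0.0432 without OXR1A-/- male 2). In OXR1A-/- livers Me1 means were 106.9 FPKM in males and 71.9 FPKM in females (log2 difference 0.51, limma adjusted p = 0.266), and OXR1A-/- female 3 (83.8 FPKM) lay above OXR1A-/- male 1 (83.1 FPKM). None of the 10 genes was without overlap there, against 22.1% of all tested genes. Srebf1 was called lower in WT males only without WT female 3 (log2 difference -0.93, adjusted p = 0.0326, against -0.48 and 0.323 with it).

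The width of the intervals came from the spread within groups. The SD of log2(FPKM + 1) within groups was 1.08 for Thrsp, 0.76 for Pnpla3, 0.74 for Fasn, 0.61 for Acacb and 0.59 for Acly, against a median of 0.21 over all tested genes. Thrsp varied more than 99.5% of tested genes and Fasn more than 98.2%. The steadiest of the 10 were Me1 (SD 0.29, above 76.0% of tested genes), Scd1 (0.38) and Mlxipl (0.39).

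The genes were high and low in the same libraries. OXR1A-/- male 2 was the highest of its group for all 10 genes and OXR1A-/- male 3 the lowest for 8. OXR1A-/- female 3 was the highest for 9 and OXR1A-/- female 2 the lowest for 8. WT male 3 was the highest for 8 and WT male 2 the lowest for 8, and WT female 1 was the highest for 7 and WT female 3 the lowest for 8. Averaged over the 10 genes, the deviation from the group mean reached 0.80 on the log2 scale in OXR1A-/- male 2 and -0.60 in OXR1A-/- male 3, and 0.49 in OXR1A-/- female 3. It was -0.26 in WT male 2 and 0.29 in WT male 3, and 0.35 in WT female 1 against -0.52 in WT female 3.

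**Figure D3:**
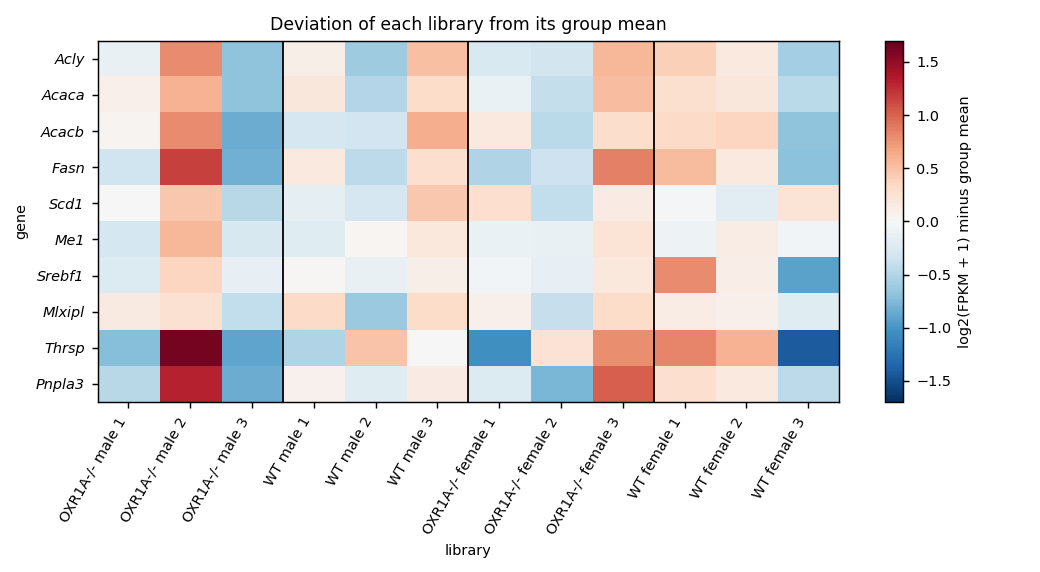
Deviation of log2(FPKM + 1) from the mean of its group for the 10 genes (rows) in the 12 libraries (columns), red above and blue below the mean. The strongest red column is OXR1A-/- male 2, and the lowest cell is Thrsp in WT female 3 (-1.41).

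These deviations correlated between genes. Pearson's r over the 12 libraries was above 0 for all 45 pairs, from 0.09 (Scd1 with Srebf1) to 0.97 (Acly with Acaca), with a median of 0.70. In an exact two-sided permutation test within groups, with 1296 permutations, 19 of the 45 pairs passed an adjusted p under 0.05 by r and 20 by Spearman's rho (Benjamini-Hochberg over the 45). All genes of a library share its RNA and its scaling, so pairs of other genes may also correlate. No such pairs were computed, so the 45 r values and the 19 that passed have no background here. A different measure, r with the mean deviation of the 10, was taken for 6601 other genes of at least 5 FPKM. It had a median of 0.16, with 5% of these genes under -0.57 and 5% above 0.75.

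The highest r were those of Acly with Acaca and with Fasn. Acly with Acaca had r = 0.97 and rho = 0.99 (exact permutation p = 0.000772, the smallest these permutations can give, adjusted p = 0.0116), and r = 0.95 without the 2 libraries furthest from the median of Acly. Acly with Fasn had r = 0.96 and rho = 0.96 (exact permutation p = 0.00154, adjusted p = 0.0116), and 0.94 without 2 libraries. Pnpla3 followed Fasn with r = 0.94 and rho = 0.89 (exact permutation p = 0.00386, adjusted p = 0.0158), and 0.86 without 2 libraries. Against the mean of the other 9 genes, Fasn had r = 0.97, Acly 0.96, Acaca 0.92, Pnpla3 0.92 and Acacb 0.89.

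Among the regulators, Srebf1 had r = 0.70 and Mlxipl r = 0.68 with the mean of the other 9, between the enzymes Me1 (0.77) and Scd1 (0.51). Mlxipl went with Acaca (r = 0.91, rho = 0.87, exact permutation p = 0.00154, adjusted p = 0.0116), while its pair with Thrsp did not pass (r = 0.22, rho = 0.30, exact permutation p = 0.473, adjusted p = 0.495). Srebf1 with Pnpla3 had r = 0.59 and rho = 0.90 (exact permutation p = 0.00231, adjusted p = 0.0149), and r = 0.93 without the 2 libraries furthest from the median of Srebf1. Thrsp had its highest r with Fasn (0.82, rho = 0.84, exact permutation p = 0.0231, adjusted p = 0.0513). Scd1, with r = 0.51 against the other 9, had 0 of its 9 pairs called, nor had Me1 or Thrsp any. For Scd1, r was 0.09 with Srebf1 and 0.11 with Thrsp, and turned to -0.13 and -0.28 without the 2 libraries furthest from the median of Scd1.

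**Figure D4:**
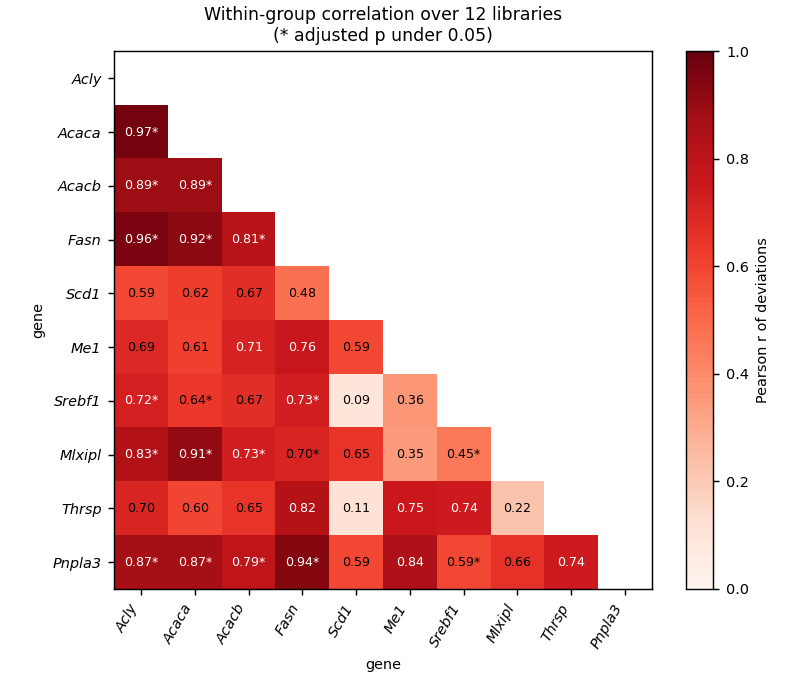
Pearson's r between deviations from the group mean for each pair of the 10 genes over 12 libraries, with a star where the exact permutation p, adjusted over 45 pairs, is under 0.05. The block of Acly, Acaca, Acacb and Fasn holds values from 0.81 to 0.97, and the row of Scd1 holds no star.

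Other genes of fatty acid and triglyceride synthesis varied with the 10. Their list, fixed with earlier results of these data known, had 18 tested genes, of which 9 had r above 0.8 with the mean deviation of the 10. Counting only genes with at least 5 FPKM on average, it was 8 of 16, beside 3.03% of the 6601 other genes. The mean of the list had r = 0.98 and rho = 0.97 with the 10 (exact permutation p = 0.000772, adjusted p = 0.00926 over 12 relations), and 0.96 without 2 libraries.

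Elovl6, which elongates palmitate to stearate, had the highest r of the list, 0.92. It was at 12.2, 32.9 and 12.6 FPKM in OXR1A-/- males and at 15.8, 11.7 and 21.5 FPKM in WT males. In females it was at 11.5, 12.7 and 42.8 FPKM in OXR1A-/- livers and at 21.9, 20.3 and 10.1 FPKM in WT livers. The highest library of each group was the same as for Fasn, and so was the lowest except in OXR1A-/- males, where Elovl6 was lowest in male 1 and Fasn in male 3. Dgat2, which makes triglyceride, had r = 0.91, Pgd, an NADPH-forming enzyme of the pentose phosphate pathway, 0.90, the pyruvate kinase Pklr 0.90, the transketolase Tkt 0.89 and the acetyl-CoA synthetase Acss2 0.87. Elovl5, the elongase of polyunsaturated fatty acids, stood apart with r = 0.06.

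In the knockout comparisons none of these 18 genes was called by limma, and 0 in males and 2 in females had an unadjusted p under 0.05. Over all tested genes that was so in 23.9% in males and 6.13% in females. In males the smallest p belonged to Elovl5, the glucose-6-phosphate dehydrogenase G6pdx and Scd2, with log2 differences of 0.44, 0.57 and 0.42 (limma adjusted p = 0.238, 0.285 and 0.293). Their list had a median of 0.20, beside 0.19 over all genes. In females the desaturase Fads2 had a log2 difference of -0.49 and Elovl5 one of 0.34 (limma adjusted p = 0.796 and 0.869). In WT males against WT females the desaturases Fads1 and Fads2 were lower, with log2 differences of -0.62 and -0.79 (limma adjusted p = 0.0225 and 0.0335).

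The 26 genes of upstream control (SREBP processing, LXR, AMPK and insulin signalling) gave 0 calls by limma in either knockout comparison. An unadjusted p under 0.05 was found for 2 in males and 3 in females, beside 23.9% and 6.13% of all tested genes. In males the median of the 26 was 0.20, with the smallest p for the LXR gene Nr1h2 (0.41, limma adjusted p = 0.098). In females it was -0.13, with Ppargc1b, a coactivator of SREBP-1, at 0.52 ± 0.243 against 1.76 ± 0.74 FPKM (limma adjusted p = 0.445). None of the 26 had r above 0.8 with the 10, and the highest was 0.69. In WT males against WT females 1 of the 26 was called higher and 5 lower, beside 13.4% of all tested genes called. Insig2, which holds SREBP in the endoplasmic reticulum, was higher, at 71.2 against 33.3 FPKM (log2 difference 1.18, limma adjusted p = 0.0184), and the AMPK subunit gene Prkab1 was lower (-0.77, limma adjusted p = 0.00108), with Nr1h2, Ppargc1b, Usf2 and Akt2.

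**Figure D5:**
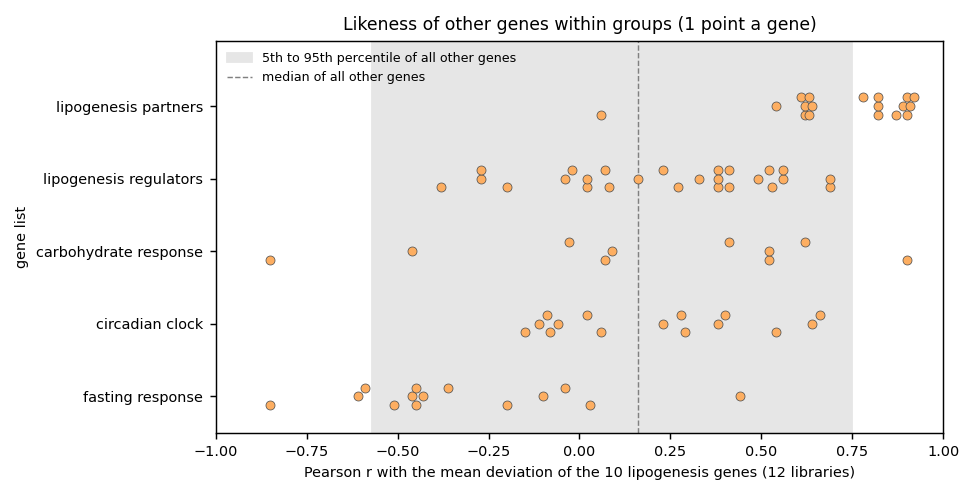
Pearson's r of single genes with the mean deviation of the 10 lipogenesis genes over 12 libraries, 1 point a gene, for 5 lists (rows), with the 5th to 95th percentile of 6601 other genes in grey (-0.57 to 0.75). The partners of lipogenesis reach 0.92, and 1 fasting gene, Fgf21, lies at -0.85.

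Genes of the fasting response, which uses fatty acids, were mostly on the other side, with a median r of -0.44 and no gene above 0.44. Fgf21, a fasting hormone that ChREBP and PPARα are known to induce, had r = -0.85. It was at 10.7, 5.80 and 12.0 FPKM in OXR1A-/- males and at 0.98, 2.13 and 1.34 FPKM in WT males. In females it was at 4.53, 4.12 and 1.96 FPKM in OXR1A-/- livers and at 0.36, 1.60 and 3.45 FPKM in WT livers. Within OXR1A-/- males, OXR1A-/- females and WT females, Fgf21 was lowest in the library where Fasn was highest.

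Of the 14 fasting genes, 4 rose in OXR1A-/- males, among them Fgf21 (log2 difference 2.05, limma adjusted p = 0.0281), Vnn1 (1.53, 0.0122) and Cyp4a14 (1.63, 0.0168). Over all tested genes 2.55% were called in that comparison. The median of the 14 was 0.42, beside 0.19 over all genes. In females limma called none (median 0.06, beside 0.00), and 2 had an unadjusted p under 0.05, beside 6.13% of all tested genes. For the difference of the effects limma called none, with 5 under 0.05, beside 9.03% of all tested genes. The mean of the list had r = -0.49 and rho = -0.42 with the 10 (exact permutation p = 0.121, adjusted p = 0.329), and Fgf21 was the only gene of the list with r under -0.8.

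Clock genes differed between the groups in which lipogenesis was compared. The repressor Nr1d1 was at 2.85, 4.94 and 18.2 FPKM in OXR1A-/- males and at 1.15, 1.63 and 2.17 FPKM in WT males, against 60.3, 42.5 and 33.6 FPKM in OXR1A-/- females and 87.0, 97.9 and 31.6 FPKM in WT females. It was lower in males in both genotypes (log2 difference -4.65 in WT, limma adjusted p = 0.00027, and -2.57 in OXR1A-/-, limma adjusted p = 0.0223). Dbp, a clock output gene, was at 71.6 and 90.8 FPKM in WT females 1 and 2 and at 4.44 FPKM in WT female 3, the library low in lipogenesis genes. In OXR1A-/- females Dbp was at 9.92, 9.01 and 1.74 FPKM, lowest in female 3, the library high in lipogenesis genes, and over the 12 libraries its r with the 10 genes was 0.06. The mean of the clock list had r = 0.48 and rho = 0.50 with the 10 genes within groups (exact permutation p = 0.108, adjusted p = 0.329). Its part in the member values between groups was not tested, and no time of collection is given.

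Genes that answer to carbohydrate were tested as a list of 10. In OXR1A-/- males 1 rose, Fgf21, already given, and 9 did not pass, beside 2.55% of all tested genes called. In females limma called none, and 1 had an unadjusted p under 0.05, beside 6.13% of all tested genes. In WT males against WT females Txnip (log2 difference -1.93), Klf10 (-2.11) and Arrdc4 (-1.58) were lower, with limma adjusted p = 0.000751, 0.00163 and 0.00164. Mlxipl, whose product ChREBP is known to induce Txnip and Arrdc4, was not called in that comparison (-0.38, limma adjusted p = 0.352).

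No measure of library quality followed the 10 genes within groups past the adjusted threshold. The r with their mean deviation was 0.24 for relative depth, -0.50 for the FPKM sum and 0.28 for the length slope (rho = 0.24, -0.49 and 0.35, exact permutation p = 0.429, 0.145 and 0.444, adjusted p = 0.592, 0.329 and 0.592). Stellate markers had r = 0.81 and rho = 0.68 (exact permutation p = 0.0262, adjusted p = 0.157) and 0.59 without 2 libraries. Macrophage and endothelial markers had r = 0.28 and 0.41 (adjusted p = 0.705 and 0.592 by the exact permutation test), and hepatocyte markers -0.00. With 12 libraries, relations of moderate size may have been missed.

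Other genes with a very similar pattern were found by their r with the mean deviation of the 10 over 12 libraries, among the 6601 genes compared. Among the highest were Gm9159 (0.96), the RNA sensor Ifih1 (0.95), Lacc1 and Pstpip2 (0.94 each), the mitochondrial carrier Slc25a44 (0.94), Gdf2 (0.93) and the lipid kinase Pi4k2a (0.93). Lacc1 was at 4.45, 12.2 and 4.44 FPKM in OXR1A-/- males and at 3.48, 2.85 and 4.28 FPKM in WT males, again with OXR1A-/- male 2 alone high. They are the top of a ranking of many genes on few libraries, so their r values are a description and carry no test.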

How the data were processed

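Liver mRNA of 12 libraries was selected with oligo(dT) beads and reverse transcribed with N6 primers, per the labels' protocols. The authors deposited FPKM per gene, per the file headers. TopHat2 and mm10 are named in the submitters' processing notes; the quantifier and read totals were not stated, so no counting interval was made. Columns left out numbered 0.

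Of all genes, the 11514 that reached 1 FPKM in 3 or more libraries entered limma 3.58.1 (R 4.3.3) as log2(FPKM + 1), with a mean for each of the 4 groups, trended moderated variances and two-sided p-values, adjusted by Benjamini-Hochberg over these genes and called under 0.05. Intervals are 95%. The script was tested on simulated data. Correlations used deviations from group means and exact permutations within groups. Relative depth came from the smallest steps of low values; 60 of 66 library pairs agreed within 0.05 (log2). Transcript lengths (GENCODE vM21) were found for 17145 genes, and promoters came from RefSeq. The 10 genes, the lists and the tests were chosen with earlier results of these data known. Named genes are the 10, Oxr1, the 3 of each list with the smallest p per comparison and up to 6 called there, and the 8 most similar genes; any other gene was chosen after its values were seen, as were the list genes given for their r alone. Some genes that meet this rule are not reported here.

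Alternatives were a pseudocount of 0.1, no filter, median-ratio scaling, quantile normalization, a length correction, fits of just the groups compared, untrended variances, array weights, a replicate block and leaving out each library.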

Additional observations from a re-analysis of the deposited data

How the results depend on the processing

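Of 440 log2 differences of the 10 genes under the 9 alternatives other than leaving out a library, 426 kept their direction and their side of the threshold, 13 changed sign and 1 became called, Pnpla3 in WT males against WT females with just those groups in the fit, where the count of called members was 1. For OXR1A-/- against WT males, the log2 difference of Pnpla3 was 0.00 with a pseudocount of 0.1. Median-ratio scaling gave -0.05 for Acaca, -0.07 for Fasn and -0.09 for Me1, and quantile normalization -0.08 for Acaca, -0.04 for Fasn and -0.01 for Pnpla3. In the male effect minus the female effect, median-ratio scaling gave -0.11 for Me1 and -0.02 for Srebf1. Acly in WT males against WT females was 0.17, 0.11 and 0.04 under median-ratio scaling, quantile normalization and the length correction, and Fasn in OXR1A-/- males against OXR1A-/- females was -0.13 with array weights. The cause was not tested. Leaving out each library gave 0 to 2 called members in WT males against WT females and 0 in the other comparisons, and 21 log2 differences changed sign. For OXR1A-/- against WT males it ran from -0.16 to 0.48 for Acaca, from -0.45 to 0.54 for Fasn, from -0.17 to 0.27 for Me1, from -0.42 to 0.65 for Pnpla3, from -0.68 to 0.06 for Acly. For OXR1A-/- against WT females it ran from -0.06 to 0.12 for Me1, from -0.73 to 0.13 for Srebf1. For the male effect minus the female effect it ran from -0.09 to 0.65 for Acly, from -0.16 to 0.66 for Acacb, from -0.22 to 0.21 for Me1, from -0.25 to 0.61 for Srebf1, from -0.33 to 0.19 for Mlxipl, from -1.43 to 0.09 for Thrsp. For WT males against WT females it ran from -0.29 to 0.30 for Acly. For OXR1A-/- males against OXR1A-/- females it ran from -0.09 to 0.65 for Acly, from -0.13 to 0.50 for Acaca, from -0.47 to 0.54 for Fasn, from -0.41 to 0.85 for Thrsp, from -0.47 to 0.36 for Acacb, from -0.36 to 0.10 for Scd1, from -0.90 to 0.26 for Pnpla3.

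Over all genes, 294 were called in OXR1A-/- against WT males, and 174 without the filter, 150 with median-ratio scaling, 140 with quantile normalization, 759 with the length correction, 3 with just the groups compared, 63 with array weights and 58 to 570 without single libraries. In females the 2 called became 1 with the small pseudocount or the length correction, 4 without the filter, 6 with just the groups compared, 229 with array weights and 0 to 12 without single libraries. The 3 called for the difference of effects became 5, 1 and 10 with the small pseudocount, the length correction and array weights, and 1 to 22 without single libraries. In WT males against WT females 1539 became 675 to 2081 without single libraries, and in OXR1A-/- livers 423 became 216 with just the groups compared, 675 with array weights and 201 to 637 without single libraries.

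Same-numbered libraries of different groups did not as a rule deviate together (r from -0.32 to 0.56, over 0.1 in 6 of 18 pairs, best with its own number in 10 of 36). No pairing by number was thus seen, but with 3 libraries a group this check cannot exclude it. The replicate block left 0 of the 10 genes called in each comparison and gave 132 called genes in males and 5 for the difference of effects. Read totals are not known, and Pnpla3, at 0.14 to 4.53 FPKM, rests on the fewest reads for its length.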
